A study of Mus musculus with 82 samples.

Results

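Gap junction and large-pore channel genes of brain glia were followed in ribosome-bound RNA from mouse cortex and white matter after stroke. The genes were 6 connexins (Gja1, Gjb6, Gjb2, Gjc3, Gjb1 and Gjd2) and 2 pannexins (Panx1 and Panx2), chosen by name as those of glial and neuronal junctions; all 8 were found among the 48795 gene identifiers of the count table. The 82 libraries formed 18 groups. Immunoprecipitated (IP) RNA, which the series describes as enriched for astrocytes, was measured in 5 libraries each of sham (uninjured) cortex, sham white matter, and zones 1 to 5 after cortical stroke and after white matter stroke. Input RNA, the lysate before immunoprecipitation, was measured in 5 uninjured libraries per region, and zones 1 to 3 collected as one area gave 3 IP and 3 input libraries per stroke model. All tissue was lightly fixed by perfusion, frozen and cut out by laser. Strain, age, sex, the allele that tags the ribosomes, the stroke agents and the time after stroke were not given in the sources used here, nor is the distance of a zone from the lesion. The labels tie no library to an animal, and each p-value reflects library-to-library spread, which may be technical.

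Most connexins assemble into hexameric half-channels that dock between neighbouring cells and let ions and small metabolites pass. Pannexins form large-pore channels, and those of Panx1 open to the extracellular space and release ATP. In the rodent brain, Gja1 (Cx43), Gjb6 (Cx30) and, at low level, Gjb2 (Cx26) are the connexins of astrocytes. Gjb1 (Cx32) and Gjc3 (Cx29 in the mouse) are oligodendrocyte connexins, and Gjd2 (Cx36) forms electrical synapses between neurons. Panx1 is found in many cell types, and Panx2 mainly in the central nervous system.

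Promoters of genes called between a zone and uninjured tissue, or between zones, are shown first: Gja1 (astrocyte), and Gjc3 and Gjb1 (oligodendrocyte). They run 5′ to 3′ from 250 bases before to 50 bases after the annotated start, come from RefSeq (GRCm38.p6), and lie at chr10:56377050-56377349 on the plus strand, chr5:137963049-137963348 on the minus strand and chrX:101383482-101383781 on the plus strand. Capitals mark matches to TATAAA, to the SOX-type motifs ACAAAG or ACAATG, or to the AP-1 motif TGACTCA, each searched on both strands, so that a match on the other strand reads as its reverse complement.
Gja1: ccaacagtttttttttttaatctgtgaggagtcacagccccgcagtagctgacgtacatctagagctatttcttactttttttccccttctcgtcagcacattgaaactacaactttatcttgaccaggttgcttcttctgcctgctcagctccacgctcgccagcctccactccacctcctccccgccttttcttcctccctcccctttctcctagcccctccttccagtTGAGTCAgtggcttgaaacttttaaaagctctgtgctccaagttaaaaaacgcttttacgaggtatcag
Gjc3: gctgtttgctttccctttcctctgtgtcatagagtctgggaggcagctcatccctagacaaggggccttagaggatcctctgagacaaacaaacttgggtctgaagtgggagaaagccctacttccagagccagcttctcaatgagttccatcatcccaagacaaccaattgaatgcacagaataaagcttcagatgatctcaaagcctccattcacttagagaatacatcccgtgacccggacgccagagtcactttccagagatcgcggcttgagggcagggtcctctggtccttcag
Gjb1: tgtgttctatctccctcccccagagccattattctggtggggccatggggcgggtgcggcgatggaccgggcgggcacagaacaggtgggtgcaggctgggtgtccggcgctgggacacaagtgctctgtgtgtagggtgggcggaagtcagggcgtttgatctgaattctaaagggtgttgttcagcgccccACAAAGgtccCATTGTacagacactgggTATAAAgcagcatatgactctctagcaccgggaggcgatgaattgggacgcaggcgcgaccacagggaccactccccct
The Gja1 window held TGACTCA on the minus strand, 19 bases before the start; 5.20% of 32851 promoters of this length held that motif. The Gjb1 window, shown because it had the most matches of the 4 entries for that gene, held ACAAAG 57 bases before the start, ACAATG (on the minus strand) at 47 bases and TATAAA at 29 bases, motifs that stood in 18.7%, 12.6% and 13.6% of all promoters. Of the other Gjb1 entries, the first held ACAAAG 176 bases before its start and the rest held none of the motifs. None of the 4 motifs stood in the Gjc3 window. Promoters of 7 of the 8 genes were in the table.

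Counts outside 6 ribosomal or ribosome-like genes were taken as each library's total, and levels are counts per 1000000 of it (CPM). These totals ran from 389889 to 5708700 per library, of all counts from 2518604 to 28245109. Replicates of a group correlated less well in white matter IP (median r of 0.57 to 0.71 between log levels over genes) than in cortex IP (0.76 to 0.96). Replicate 1 of cortex zone 1 was shallow, as were 4 white matter libraries (replicates 1 and 5 of zone 1, replicate 1 of zone 3 and replicate 3 of zone 5), with under 10000 genes or under 1000000 counts. In uninjured cortex, 2 of 12 astrocyte markers passed the test as higher in IP than in input (Ndrg2 and Aldh1l1; median log2 difference 0.53), as did 4 of 10 neuron markers and 1349 of all 11280 genes tested. In uninjured white matter the count was 1 of 12 for astrocyte markers (Slc1a2), 1 of 9 tested for neuron markers (Camk2a) and 3 of 10 for oligodendrocyte markers, against 63 of all 11950 genes tested. Oligodendrocyte transcripts were abundant in the white matter IP: the 10 oligodendrocyte markers summed to 45914 ± 9272 CPM in uninjured white matter IP (SD, n = 5), against 6941 ± 1286 CPM for the 12 astrocyte markers. In such bulk libraries, fewer cells of a type and less RNA per cell cannot be told apart.

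In uninjured tissue, Gjc3 and Gjb1 were far higher in white matter IP, and Panx2 was higher in cortex IP. Gjc3 stood at 1409, 1643, 1191, 1079 and 1469.7 CPM in the 5 white matter IP libraries and at 61.0, 87.1, 89.7, 46.0 and 76.6 CPM in the 5 cortex IP libraries. Every white matter library was above every cortex library by a wide margin, and Gjc3 was 27.0-fold lower in cortex (log2 −4.75 ± 0.26 SE, edgeR adjusted p = 8.94e-09). Gjb1 was at 49.1, 26.5, 60.0, 61.7 and 45.0 CPM in white matter and at 0.999, 0.947, 5.69, 0.492 and 0 CPM in cortex, from 0 to 9 counts per cortex library. The groups did not overlap, and the fitted difference was −5.37 ± 0.84 (log2, edgeR adjusted p = 0.000197), or −6.90 without cortex replicate 3, the highest of the cortex libraries. Panx2 read 44.0, 18.0, 45.5, 34.2 and 41.3 CPM in cortex and 1.21, 5.06, 2.69, 0 and 3.29 CPM in white matter. These groups did not overlap either, with Panx2 10.9-fold higher in cortex (log2 3.45 ± 0.81, edgeR adjusted p = 0.0049). Gjb1 passed the filter through white matter and Panx2 through cortex, the region where each is high. Of the 8 genes 6 passed the filter on low counts and 3 were called in this comparison, in which 27.5% of the 11815 genes tested were called, and all 10 oligodendrocyte markers were lower in cortex (median log2 −5.00) and 9 of 10 neuron markers higher (median 3.20). Gja1 was at 41.7 ± 11.7 CPM in cortex and 64.2 ± 36.1 CPM in white matter (SD, n = 5 each); its difference of −1.13 ± 0.41 (log2) did not pass (edgeR adjusted p = 0.0512), though it did with DESeq2 (0.0489) and without white matter replicate 1, 2 or 4 (0.0249 to 0.0414). Gjb6 was at 18.7 ± 12.3 CPM in cortex and 19.7 ± 15.5 CPM in white matter, well within the spread of either group.

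**Figure D1:**
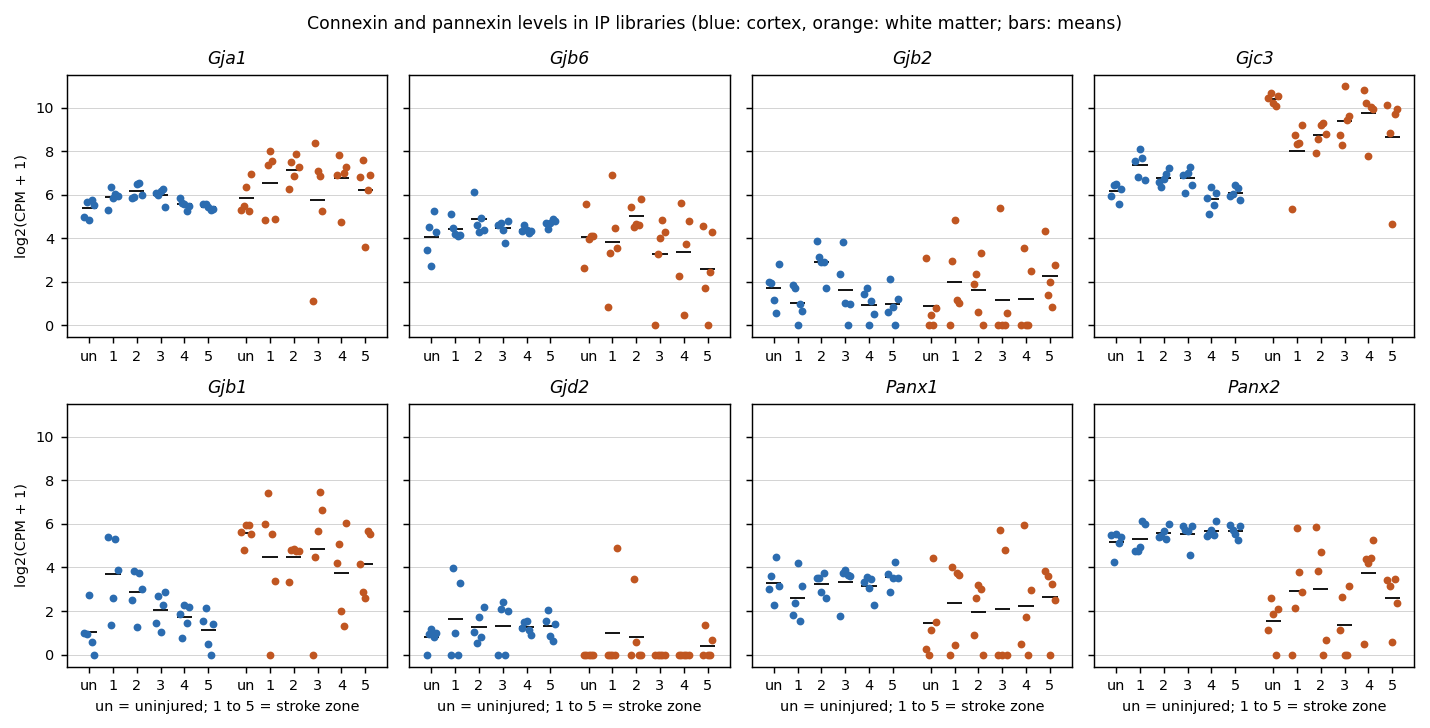
Level of each gene in the IP libraries, as log2(CPM + 1), in uninjured tissue (un) and stroke zones 1 to 5 of cortex (blue) and white matter (orange); each point is 1 library and each bar the mean of 5. Gjc3 and Gjb1 sit higher in white matter and Panx2 in cortex, and Gjd2 is at 0 in 25 of the 30 white matter libraries.

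Levels were also set per kilobase of merged exon, a rough scale for comparing genes. The merged length counts every annotated exon (10257 bases for Gja1), so a gene whose transcripts are shorter reads too low. The order and shares below hold for these lengths only. On this scale Gjc3 was the highest of the 8 genes in 11 of the 12 IP groups of uninjured tissue and single zones. In uninjured white matter it stood at 312 ± 51.6 CPM per kb (SD, n = 5) and made up 87.6% of the summed level of the 8 genes, followed by Gjb1 at 28.4 ± 8.29, Gjb6 at 7.35 ± 5.79 and Gja1 at 6.26 ± 3.52 CPM per kb. In uninjured cortex Gjc3 was at 16.5 ± 4.24 CPM per kb, or 39.6% of the sum, with Panx2 at 10.2 ± 3.13, Gjb6 at 6.97 ± 4.59 and Gja1 at 4.07 ± 1.14 CPM per kb. The astrocyte pair Gja1 and Gjb6 therefore held a mean of 26.1% of the summed per-length level in cortex libraries (SD 12.5) and 3.76% (SD 1.41) in white matter libraries, whereas the oligodendrocyte pair Gjc3 and Gjb1 held 41.9% (SD 11.6) and 95.6% (SD 1.12). After white matter stroke the oligodendrocyte pair held 77.8% (SD 20.3) in zone 1 and 75.3% (SD 9.27) in zone 2, and the astrocyte pair 15.8% (SD 15.2) and 18.5% (SD 5.10). Panx2 was the highest per length in cortex zone 4, with Gjc3 next. For every gene, the order of the 6 group means within a region held no pair of neighbours whose libraries did not overlap.

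**Figure D2:**
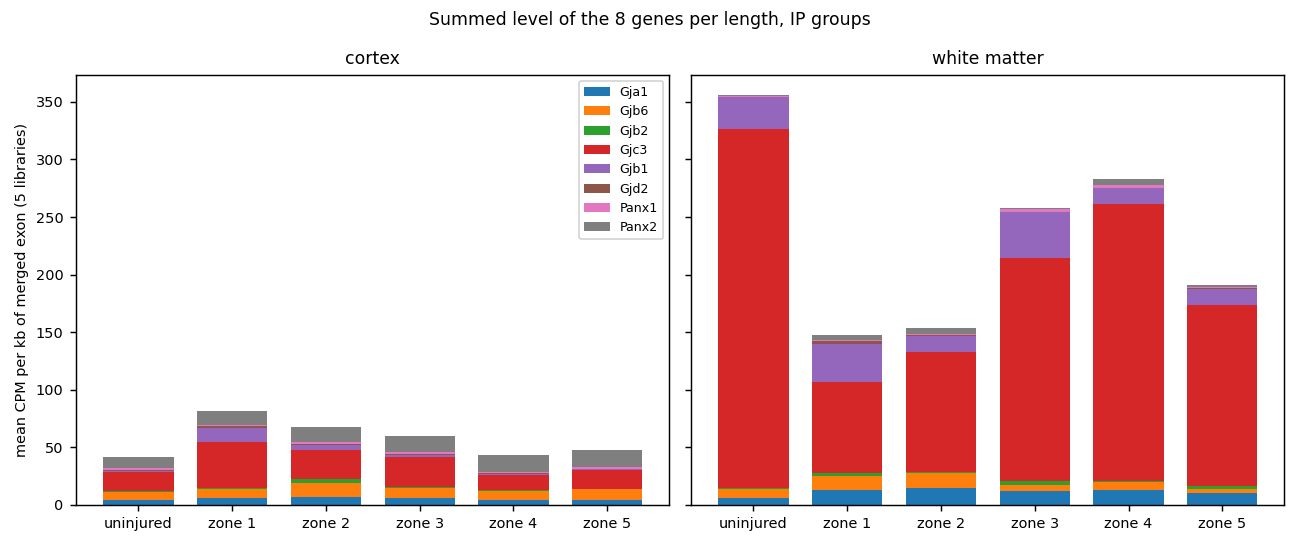
Mean CPM per kilobase of merged exon of the 8 genes, stacked, in each IP group (n = 5 libraries per group). The sum is 356 in uninjured white matter and 148 and 153 in white matter zones 1 and 2, against 41.8 in uninjured cortex and 81.2 in cortex zone 1, and Gjc3 is the thickest layer in every group but cortex zone 4.

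Gjc3 rose in cortex zone 1 and fell in white matter zone 2. All comparisons of zones with uninjured tissue share the 5 uninjured libraries of their region. In cortex zone 1 it was at 187, 110.2, 276, 205 and 102 CPM, above all 5 uninjured libraries (46.0 to 89.7 CPM). This was a 2.37-fold rise (log2 1.24 ± 0.30, edgeR adjusted p = 0.0185), and Gjc3 was the 1 gene called of 6 tested, where 5.3% of all tested genes were called. The call was lost with limma voom (adjusted p = 0.12) and without zone 1 replicate 3 or uninjured replicate 1, 4 or 5 (edgeR adjusted p = 0.0588 to 0.0702, log2 1.00 to 1.19). In cortex zone 2 Gjc3 was at 94.7, 80.7, 106, 123 and 149 CPM and in zone 3 at 119, 67.7, 127, 155 and 86.1 CPM. Zone 2 overlapped the uninjured group in 1 library and zone 3 in 2, and neither difference passed (log2 0.64 ± 0.20 and 0.63 ± 0.23, edgeR adjusted p = 0.0791 and 0.655). Zones 4 and 5 read 57.5, 33.3, 80.9, 45.2 and 67.6 CPM and 60.6, 65.5, 86.1, 79.2 and 52.6 CPM, within or below the uninjured range. Gjc3 was 2.56-fold higher in zone 1 than in zone 5 (log2 1.35 ± 0.29, edgeR adjusted p = 0.00733). The 3 IP libraries of cortex zones 1 to 3 as one area did not show the rise. In them Gjc3 was at 72.1 ± 3.30 CPM (69.8 to 75.9), beside 72.1 ± 18.5 CPM in uninjured IP (SD). That difference was not tested.

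In white matter Gjc3 was lower in zones 1 and 2 than in uninjured tissue. Zone 2 libraries held 242, 373, 586, 636 and 438 CPM, all under the lowest uninjured library (1079 CPM). This was a 3.58-fold fall (log2 −1.84 ± 0.29, edgeR adjusted p = 0.00303); Gjc3 was the 1 gene called of 4 tested, where 0.941% of tested genes were called. The fall was called without any single library (log2 −1.97 to −1.69) but not in a fit of all 6 IP groups of the region (edgeR adjusted p = 0.32). Zone 1 libraries held 39.3, 434, 319.9, 334 and 585 CPM, again all under the uninjured group. That difference, −2.23 ± 0.51 (log2), just missed the threshold in edgeR (adjusted p = 0.0523), so that 0 of 4 tested genes were called, at a background of 0.45%, with 1 at an unadjusted p under 0.05. DESeq2 and limma voom each called it (adjusted p = 0.0132 and 0.0036), as did edgeR without the shallow replicates 1 and 5 (0.000916) or without replicate 1, 3 or 5 alone (0.00658 to 0.0389); with DESeq2 size factors in edgeR the adjusted p was 0.123. Zone 3 read 424, 308, 2008, 684 and 787 CPM, zone 4 read 1803, 1195, 219.7, 1031 and 992 CPM, and zone 5 read 1099, 458, 24.2, 848 and 995 CPM. These 3 groups overlapped the uninjured one and their replicates spread over several-fold ranges; the differences in zones 4 and 5 were −0.55 ± 0.38 and −1.06 ± 0.81 (log2, edgeR adjusted p = 0.639 and 0.846).

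The difference between the regions was itself tested. Each region was sampled only after its own stroke model, so region and stroke model cannot be told apart in it. The zone 1 response of Gjc3 was higher in cortex than in white matter by 3.50 ± 0.59 (log2, edgeR adjusted p = 0.00279), and the zone 2 response by 2.44 ± 0.37 (edgeR adjusted p = 0.000722). Both were called in every alternative that was run for them and without each of the 20 libraries in turn. The fit of all groups of a region, which lost the white matter zone 2 call, was not run for these contrasts. Gjc3 was the 1 gene called of 6 tested in zone 1 and of 7 in zone 2, where 1.88% and 2.75% of tested genes were called. In zones 3, 4 and 5 edgeR, DESeq2 and limma voom called 0 of 6 tested genes, with 0, 1 (Panx2) and 0 at an unadjusted p under 0.05, at backgrounds of 0%, 0.26% and 0%.

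Oligodendrocyte markers were read beside Gjc3. In cortex zone 1, 7 of 10 passed as higher (median log2 1.78; summed level 5303 to 9026 CPM against 1814 to 2586 in uninjured cortex), among them the myelin protein Cldn11 (3.53 ± 0.32); in zone 2, 6 of 10 did (median 0.69). In white matter zone 2, 1 of 10 passed as lower (Mag, a myelin adhesion protein, −1.45 ± 0.34; list median −0.93; summed level 24128 to 50604 CPM against 31400 to 53724), and in zone 1 none did in edgeR (median −0.94; summed level 7851 to 35080 CPM). Set against the summed markers of its own library, with 1 CPM added to its level, Gjc3 was at 30.9 ± 9.21 CPM per 1000 marker CPM in uninjured white matter and at 14.9 ± 5.15 in zone 2 (SD, n = 5 each), a log2 difference of −1.07 (exact permutation test, two-sided p = 0.0159, adjusted over 30 such tests 0.317). In white matter zones 1, 3, 4 and 5 the log2 differences of this ratio were −1.17, −0.996, −0.414 and −1.33. The exact permutation p-values were 0.175, 0.0317, 0.119 and 0.0317 (adjusted 0.655, 0.317, 0.578 and 0.317). A lower mean ratio was therefore not particular to zone 2, and every zone overlapped the uninjured libraries. In cortex the ratio was 34.6 ± 10.3 uninjured and 23.2 ± 6.48 in zone 1 (log2 −0.56, exact permutation p = 0.0952, adjusted 0.571). Microglia and macrophage markers also rose, 11 of 11 in cortex zone 1 and 3 of 11 in white matter zone 2. The part of cell composition in the Gjc3 differences was not tested beyond these ratios. With 5 against 5 libraries, a single such ratio could not pass after adjustment over 30 tests, even with no overlap. The adjusted values, here and for Gja1 below, therefore cannot decide whether a gene moved apart from its markers.

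**Figure D3:**
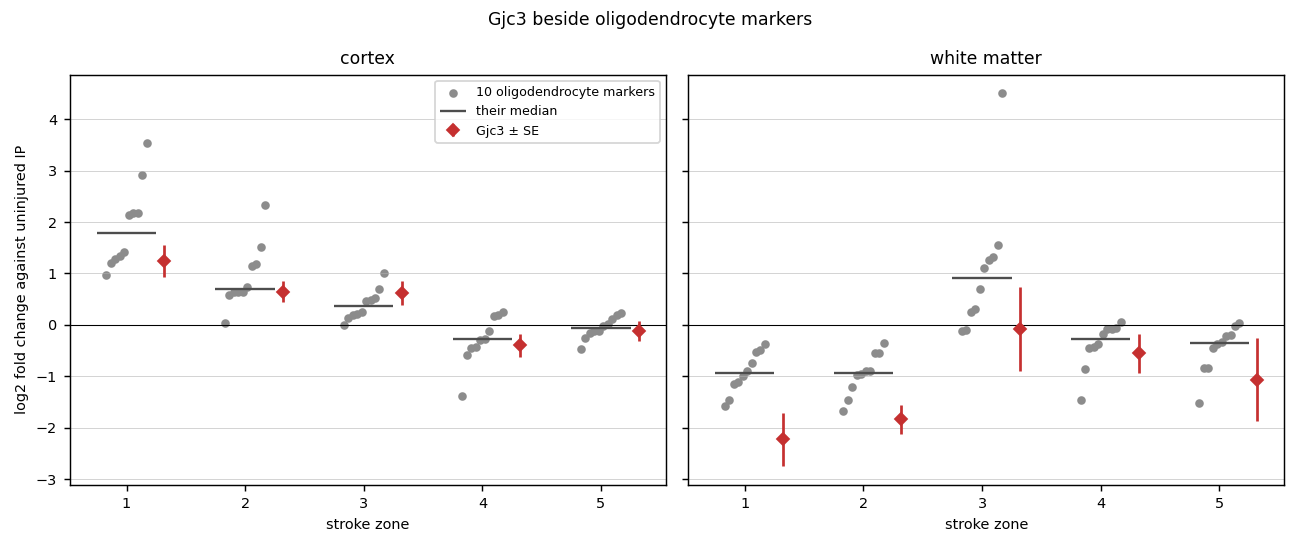
Log2 fold change against uninjured IP of Gjc3 (diamonds, ± SE) and of the 10 oligodendrocyte markers (points, sorted; bar, median) in zones 1 to 5, from the fit of 5 against 5 libraries per zone. In cortex Gjc3 lies among the markers, as at 1.24 in zone 1 against their median of 1.78; in white matter zones 1 and 2 it lies below all 10, at −2.23 and −1.84 against medians of −0.94 and −0.93.

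Gjb1, the other oligodendrocyte connexin of the set, was scarce in cortex. In cortex zone 1 it was at 41.0, 1.58, 4.99, 38.7 and 13.7 CPM, against 0.999, 0.947, 5.69, 0.492 and 0 CPM in uninjured cortex. Of the 5 replicates, 3 stood above the uninjured group and 2 within its range; the difference of 3.48 ± 1.02 (log2) did not pass in edgeR (adjusted p = 0.0537) and passed with DESeq2, with no filter, with all cortex IP groups in one fit (adjusted p = 0.00385 to 0.00888), and without zone 1 replicate 2 or 3 or uninjured replicate 3 (0.0173 to 0.0405, log2 3.74 to 5.04). Against zone 5, where it was at 1.93, 3.42, 0.393, 0 and 1.67 CPM, Gjb1 was 12.1-fold higher in zone 1 (log2 3.59 ± 0.92, edgeR adjusted p = 0.0232). Gjb1 passed the filter there through zone 1 (9 to 163 counts per library, against 0 to 13 in zone 5), the zone where it is high, as it did in the comparison with uninjured cortex. Zones 1 and 5 overlapped in 1 zone 1 library, and the call held in 4 of 10 fits that left out 1 library; it was lost without zone 1 replicate 1 or 4 or zone 5 replicate 1, 3, 4 or 5 (0.0534 to 0.0717, log2 3.02 to 3.65) and with limma voom (0.228). In that comparison 2 of 6 tested genes were called, Gjb1 and Gjc3, where 7.23% of all tested genes were; 9 of 10 oligodendrocyte markers were also higher in zone 1. Zones 2, 3 and 4 held 7.74 ± 5.04, 3.68 ± 2.28 and 2.51 ± 1.32 CPM (SD, n = 5), too few counts for the filter. In white matter zone 2 Gjb1 was at 8.95, 27.0, 27.4, 26.4 and 26.3 CPM against 26.5 to 61.7 CPM in uninjured tissue (log2 −1.31 ± 0.67, edgeR adjusted p = 0.389). Zones 1, 3, 4 and 5 ran from 0 to 168, 0 to 178, 1.49 to 64.2 and 5.03 to 50.5 CPM. All 4 zones reached below the uninjured group and overlapped it, and zones 1, 3 and 4 also reached above it; the differences in zones 4 and 5 were −1.26 ± 0.88 and −0.99 ± 0.87 (log2, edgeR adjusted p = 0.652 and 0.901). The zone 2 response was higher in cortex by 3.51 ± 1.06 (log2), which missed the threshold in edgeR (adjusted p = 0.0665) and passed with DESeq2 and limma voom (0.00802 and 0.0409) and without uninjured cortex replicate 3 (0.016, log2 5.06). Gjb1 passed the filter for this contrast through white matter, the region where it is high. Its cortex part rests on 3 to 30 counts per library in zone 2 and 0 to 9 in uninjured tissue. White matter zones 1 and 5 were also compared: edgeR, DESeq2 and limma voom called 0 of 6 tested genes, none at an unadjusted p under 0.05, at a background of 0.369%.

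**Figure D4:**
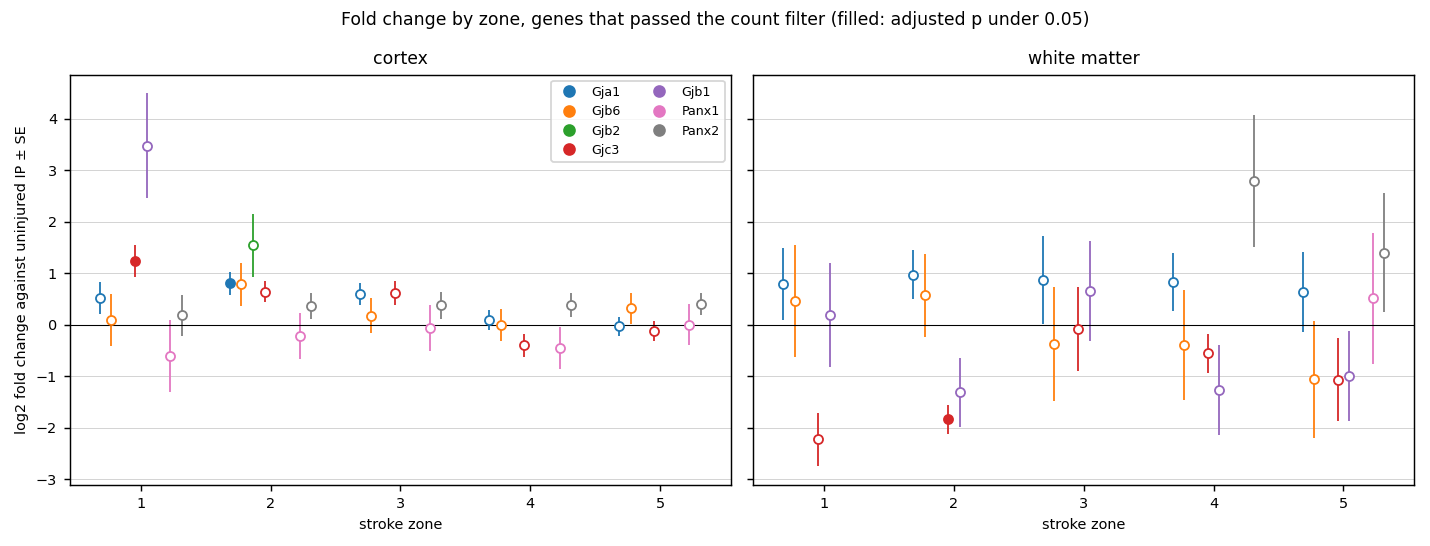
Log2 fold change against uninjured IP (± SE) of each gene that passed the count filter, by stroke zone, in cortex and white matter (5 against 5 libraries); filled circles have an edgeR adjusted p under 0.05. Only Gjc3 in cortex zone 1 and white matter zone 2 and Gja1 in cortex zone 2 are filled, and the white matter error bars are wider.

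Gja1, which carries most coupling between astrocytes, was higher in cortex zone 2. It stood at 57.5, 58.6, 87.7, 93.2 and 62.6 CPM there, against 31.0, 50.2, 27.8, 53.9 and 45.8 CPM in uninjured cortex. All 5 zone 2 libraries were above all 5 uninjured ones, a 1.75-fold rise (log2 0.81 ± 0.22, edgeR adjusted p = 0.032). Gja1 was the 1 gene called of 6 tested, at a background of 3.64%. The call was lost with limma voom (adjusted p = 0.0855) and in 5 of 10 fits that left out 1 library, namely zone 2 replicate 3 or 4 or uninjured replicate 1, 3 or 5 (edgeR adjusted p = 0.0553 to 0.141, log2 0.68 to 0.81). In zone 1 Gja1 was at 38.5, 81.3, 56.9, 65.1 and 61.1 CPM, and in zone 3 at 66.2, 62.0, 71.5, 75.3 and 42.7 CPM. A single library of either zone fell within the uninjured range, and neither zone passed (log2 0.52 ± 0.31 and 0.60 ± 0.22, edgeR adjusted p = 0.446 and 0.652). Zones 4 and 5 held 46.7 ± 7.26 and 42.6 ± 3.68 CPM (SD, n = 5), beside the uninjured mean of 41.7 ± 11.7 CPM. Between zones 1 and 5 the difference was 0.53 ± 0.27 (log2, edgeR adjusted p = 0.283). The 3 IP libraries of cortex zones 1 to 3 as one area did not show the zone 2 rise. In them Gja1 was at 45.2 ± 4.10 CPM (SD, 40.8 to 48.9), within the uninjured range. That difference was not tested. Astrocyte markers were higher with Gja1: 5 of 12 passed in zone 2 (list median log2 0.49; summed level 6215 to 9298 CPM against 4325 to 8346), led by the water channel Aqp4 (2.06 ± 0.20) and the filament protein Gfap (3.29 ± 0.33). Per 1000 CPM of the 12 astrocyte markers, Gja1 was at 8.17 ± 2.23 CPM in uninjured cortex and 9.83 ± 3.31 in zone 2 (log2 0.24, exact permutation p = 0.381, adjusted over 30 tests 0.878).

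In white matter the mean level of Gja1 was 64.2 ± 36.1 CPM in uninjured tissue and between 102 ± 67.0 CPM (zone 5) and 151 ± 58.7 CPM (zone 2) in the stroke zones (SD, n = 5). Zone 2 libraries read 77.0, 178, 116, 231 and 153 CPM against 38.8, 44.2, 79.6, 37.5 and 121 CPM uninjured. The groups overlapped, and the difference of 0.97 ± 0.47 (log2) did not pass (edgeR adjusted p = 0.36). In zones 1, 3 and 4 the differences were 0.80 ± 0.70, 0.88 ± 0.85 and 0.83 ± 0.56 (log2, edgeR adjusted p = 0.661, 0.75 and 0.639). The shallow libraries were among the lowest: 27.5 and 28.6 CPM in zone 1, 1.16 CPM in zone 3 and 11.1 CPM in zone 5.

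Gjb6, the second astrocyte connexin, passed in no comparison. In cortex zone 2 it was at 69.6, 23.4, 18.8, 29.8 and 19.8 CPM, against 9.99, 21.8, 5.69, 37.4 and 18.4 CPM uninjured. Replicate 1 stood apart and the other 4 lay within the uninjured range (log2 0.79 ± 0.42, edgeR adjusted p = 0.398). Means in the other cortex zones ran from 19.9 ± 2.01 CPM (zone 4) to 25.1 ± 3.23 CPM (zone 5), and in white matter from 9.71 ± 10.4 CPM (zone 5) to 33.4 ± 14.9 CPM (zone 2). Gjb2, which astrocytes and the leptomeninges express, was near the limit of detection, with a median of 1.53 CPM over 30 cortex IP libraries (0 to 13.6) and 0.937 CPM over 30 white matter ones (0 to 40.9). It passed the filter in 1 of the 10 zone comparisons, cortex zone 2, through the zone where it was highest. There it was at 13.6, 7.93, 6.43, 6.55 and 2.33 CPM against 3.00, 2.84, 1.26, 0.492 and 5.97 CPM uninjured, and the difference of 1.54 ± 0.62 (log2) did not pass (edgeR adjusted p = 0.199).

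Gjd2 could not be tested, and Panx1 passed in no comparison. Gjd2, the neuronal connexin, passed the count filter in no comparison. It had a median of 1.11 CPM over 30 cortex IP libraries (0 to 14.9), and in white matter it was at 0 in 25 of 30 IP libraries. All 5 uninjured white matter IP libraries and all 5 inputs had a count of 0, which allows up to 3 counts, or 0.606 to 1.90 CPM per IP library. Of its exons, 57 bases overlap a gene on the other strand, A530058N18Rik, and the use of strand in counting was not given in the sources used here. Panx1 was at 1.90 to 21.6 CPM over the 30 cortex IP libraries (median 10.2) and at 0 to 60.5 CPM in white matter (median 3.50), with 8 of 30 at 0. Its difference was −0.70 ± 0.64 between cortex zones 1 and 5 (log2, edgeR adjusted p = 0.601) and −0.46 ± 0.41 between cortex zone 4 and uninjured cortex (adjusted p = 0.875), which changed sign without uninjured replicate 4 (0.062).

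Panx2 was the 1 gene of the set that differed strongly and repeatedly between IP and input. In uninjured cortex it was at 44.0, 18.0, 45.5, 34.2 and 41.3 CPM in IP and at 0.917, 4.83, 5.42, 1.14 and 1.20 CPM in input, the latter from 1 to 10 counts per library, so that Panx2 passed the filter through the IP. The fractions did not overlap, and Panx2 was 10.9-fold higher in IP (log2 3.44 ± 0.56, edgeR adjusted p = 0.000349). In cortex zones 1 to 3 as one area it was at 53.1, 40.2 and 47.3 CPM in IP and 1.13, 5.02 and 2.66 CPM in input. Again the fractions did not overlap, with a 14.6-fold difference (log2 3.86 ± 0.58, edgeR adjusted p = 0.000646; 4.52 without input replicate 2). Both were called in every alternative run and without any single library. In white matter, Panx2 was at 0 to 5.06 CPM in the 5 uninjured IP libraries and 0 to 2.54 CPM in the 3 IP libraries of zones 1 to 3 as one area, and at 0 to 12.1 and 0.311 to 20.5 CPM in the matching inputs, below the filter.

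Gjc3 was lower in cortex IP than in input, though less so. It was at 50.4, 108, 176, 79.2 and 133 CPM in uninjured input, overlapping the IP range of 46.0 to 89.7 CPM (log2 −0.92 ± 0.29, edgeR adjusted p = 0.0282). The call was lost with no filter on low counts (adjusted p = 0.0575) and without input replicate 3 or 5 or IP replicate 1, 4 or 5 (0.0592 to 0.0893, log2 −0.92 to −0.76). After cortical stroke the 3 inputs held 133, 137 and 138 CPM and the 3 IP libraries 70.6, 69.8 and 75.9 CPM. Here the fractions were well apart, a 2.25-fold lower level in IP (log2 −1.17 ± 0.22, edgeR adjusted p = 0.00254). These 2 genes were those called, of 5 tested in uninjured cortex and 4 after stroke, against backgrounds of 25.3% and 28.5%. Gjb6 was at 1.83, 31.4, 36.4, 45.6 and 7.80 CPM in uninjured cortex input, which spans the IP range (log2 −0.75 ± 0.62, edgeR adjusted p = 0.39). Oligodendrocyte markers went both ways between the same fractions, with Mbp and Mobp higher in IP and Cldn11 and Ermn lower in uninjured cortex. In white matter no gene of the set differed between IP and input by edgeR, DESeq2 or limma voom: 0 of 4 tested were called in uninjured tissue (0 at an unadjusted p under 0.05; background 0.603%) and 0 of 4 after stroke (1 at an unadjusted p under 0.05, Gja1; background 0%). Gja1 after white matter stroke was at 92.6, 172 and 630.2 CPM in IP and 51.9, 214 and 63.3 CPM in input, with overlap (log2 1.89 ± 0.85, edgeR adjusted p = 0.733). Gjb1 in uninjured white matter input was at 17.6 to 51.0 CPM, against 26.5 to 61.7 CPM in IP (log2 1.01 ± 0.51, edgeR adjusted p = 0.483). Gjc3 in white matter input was at 1981, 1649, 1831, 1654 and 1345 CPM uninjured and 1058, 1158 and 902 CPM after stroke. The stroke inputs all lay under the uninjured ones, and the difference of −0.59 ± 0.20 (log2) did not pass (edgeR adjusted p = 0.344). By the same 3 tools 0 of 5 tested genes were called in that comparison (1 at an unadjusted p under 0.05, Gjc3; background 0.055%) and 0 of 4 between cortex stroke and uninjured input (0 at an unadjusted p under 0.05; background 0.0074%).

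**Figure D5:**
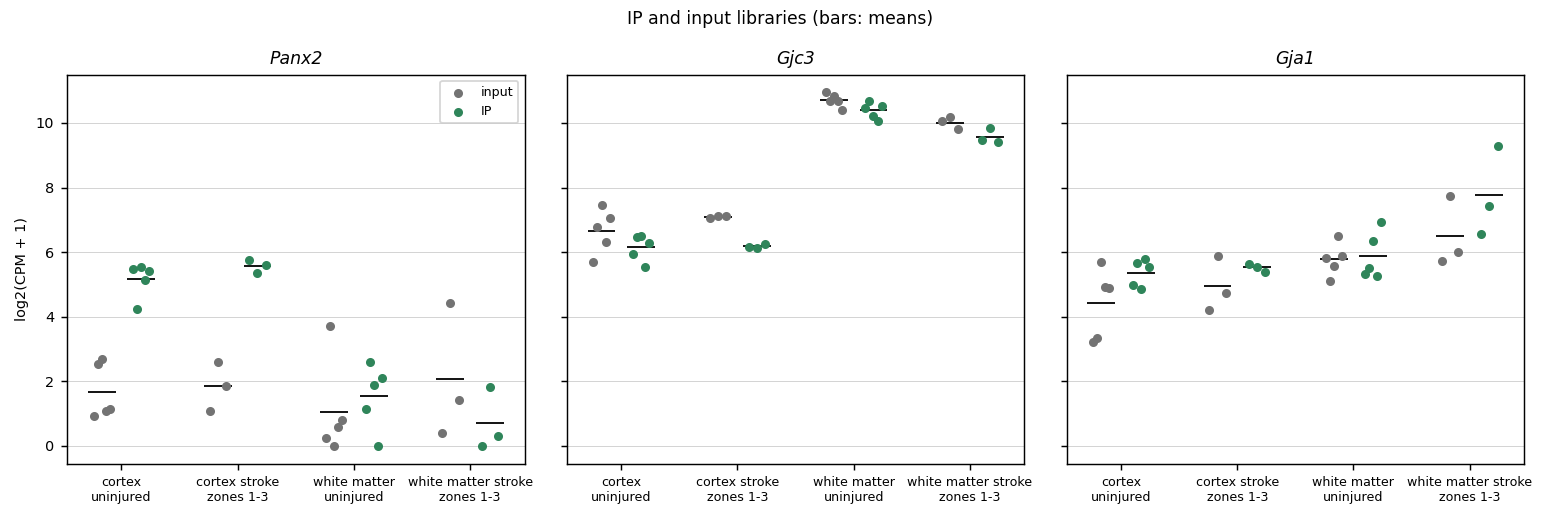
Panx2, Gjc3 and Gja1 in input (grey) and IP (green) libraries, as log2(CPM + 1), for uninjured tissue (5 libraries per fraction) and stroke zones 1 to 3 as one area (3 per fraction); bars are means. Panx2 separates completely in cortex, at 18.0 to 45.5 CPM in uninjured IP and 0.917 to 5.42 CPM in input, and does not in white matter.

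Across the cortex zones the means of Panx2 ran from 36.6 ± 11.3 CPM in uninjured tissue to 50.7 ± 10.2 CPM in zone 5 (SD, n = 5), and no zone passed. In white matter zone 4 it was at 0.416, 20.3, 17.5, 20.5 and 37.5 CPM, against 0 to 5.06 CPM uninjured. In 4 of the 5 libraries it was above the uninjured group, and the difference of 2.79 ± 1.28 (log2) did not pass (edgeR adjusted p = 0.428). In white matter zones 1, 2, 3 and 5 Panx2 ran from 0 to 54.5, 0 to 56.4, 0 to 8.01 and 0.503 to 10.2 CPM. All 4 overlapped the uninjured group, and zones 1 to 3 did not pass the filter (zone 5: log2 1.40 ± 1.16, edgeR adjusted p = 0.877). The neuron markers summed to 647 to 1813 CPM in uninjured white matter, 477 to 12688 CPM in zone 1, 2123 to 6802 CPM in zone 2 and 2512 to 12964 CPM in zone 4. Of 9 tested, 0, 3 and 1 passed as higher in zones 1, 2 and 4, and 0 in zones 3 and 5; their part in the Panx2 values was not tested. In the zones not yet counted, edgeR, DESeq2 and limma voom called none of the set. They were cortex zones 3, 4 and 5 (5 tested each; 2, 0 and 0 at an unadjusted p under 0.05; backgrounds 0.0405%, 0% and 0%) and white matter zones 3, 4 and 5 (4, 5 and 6 tested; 0, 1 and 0 at an unadjusted p under 0.05; backgrounds 0%, 0.0666% and 0%).

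Other channel and junction genes were read from 3 further lists. Of 20 junction partners and regulators, 3 of 19 tested rose in cortex zone 1, among them the tubulins Tubb4a (1.01 ± 0.18) and Tuba1a (0.74 ± 0.18), and 2 of 19 in zone 2, the scaffold Tjp1 (0.68 ± 0.16), which binds the Gja1 tail, and the caveolin Cav1 (1.71 ± 0.48). None fell in either zone; over all genes, 602 of 12526 tested rose in zone 1 and 366 of 11713 in zone 2. The list medians were 0.31 and 0.11 (log2), against 0.07 and −0.01 over all genes tested. Of 25 purinergic genes, 3 of 13 tested rose in cortex zone 1, including the microglial receptors P2ry12 (2.26 ± 0.48) and P2ry6 (3.20 ± 0.68), and 2 of 13 in zone 2, P2ry6 (2.51 ± 0.49) and the ectonucleotidase Entpd1 (1.58 ± 0.41), with list medians of 0.57 and 0.25. Of 17 other large-pore channels, 9 were tested in zone 1 and 8 in zone 2, and edgeR called 0 (medians 0.42 and 0.31). In white matter zones 1 and 2 edgeR called no gene of the 3 lists. Between uninjured regions, 7 of 18 tested junction partners were lower in cortex, led by Tubb4a (−2.17 ± 0.20) and the adhesion protein Hepacam (−2.88 ± 0.28), and 2 were higher (list median −0.35, all genes −0.23), against 1833 lower and 1413 higher of all 11815 genes tested. Between IP and input of uninjured cortex, the tweety family member Ttyh3 (1.85 ± 0.29) and the adenosine receptor Adora1 (1.67 ± 0.26) were higher in IP, as Panx2 was. The purinergic genes P2ry12 (−2.44 ± 0.53) and Entpd1 (−2.79 ± 0.69) were lower in IP. Over all 11280 genes tested, 1349 were higher in IP and 1509 lower.

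The genes most like each member were ranked by Pearson correlation of log2(CPM + 1) over the 12 IP group means, among 8980 genes with a mean of at least 10 CPM; this is a description, since the means share libraries' depth and regional makeup. Gja1 was most like Atp1b2 (r = 0.94), Sox9 and Cst3 (both 0.91), of which Atp1b2 and Sox9 are on the astrocyte marker list. Gjc3 was most like Tmem88b, Gpr37 and St18 (all 0.98), and Gjb1 most like Cdc42ep1, Mag and Micall1 (all 0.97). Panx2 was most like Ufsp2 (r = 0.996), Adgrl1 (0.995) and Scn8a (0.991), and Gjb6 most like Atg2a, Ythdf2 and Timm50 (0.97, 0.95 and 0.94). Gjb2, Gjd2 and Panx1 were too low to rank.

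On GRCm38 the genes lie at chr10:56377330-56402513 (Gja1), chr14:57123303-57133611 (Gjb6), chr14:57098600-57104702 (Gjb2), chr5:137953461-137963098 (Gjc3), chrX:101376378-101385629 (Gjb1), chr2:114009601-114013619 (Gjd2), chr9:15002128-15045478 (Panx1) and chr15:89059734-89073567 (Panx2). All are protein-coding, with merged exons of 1707 bases (Gjb1) to 10257 bases (Gja1).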

How the data were processed

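Ribosome-bound and input RNA from laser-captured tissue was made into cDNA with the NuGEN Ovation V2 kit and sequenced as 50-base read pairs, per the labels' protocols. The authors deposited raw counts per gene; the submitters' processing notes name the build as GRCm38 and mm10, while aligner, counter, annotation and strand setting were not given in the sources used here. Columns were matched to libraries by their region letter (L white matter, M cortex), zone and replicate. No replicate pair agreed within sampling noise (152 pairs). No molecular identifiers are named, so a limit from a count of 0 covers counting error only.

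Computed here: CPM over counts outside mt-Rnr1, mt-Rnr2, Gm42418, CT010467.1, Gm23935 and Lars2, which took 67.3 to 94.3% of all counts, and CPM per kb over merged exons of GENCODE vM21. Each of 24 comparisons was fitted on its own groups with edgeR 4.0.16 in R 4.3.3 (TMM, filterByExpr with a minimum count of 10 and total of 15, robust quasi-likelihood F-test, Benjamini-Hochberg over all genes tested, threshold 0.05); region differences were interaction contrasts. SE is the fold change over the square root of F. Alternatives were DESeq2 1.42.0, limma 3.58.1 voom, DESeq2 size factors, no filter, no gene set aside, a replicate block, all groups in one fit, each library left out, and, added after seeing the data, leaving out the shallow libraries and ratios to marker sums. The fit of all groups was not run for comparisons between the regions. The scripts were tested on simulated data.

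The members and lists were chosen with earlier results of these data known. The 8 members are named throughout, tested or not, by rule, though not with every value in every comparison; of other lists, up to 2 genes per direction with the lowest adjusted p. Results for 2 genes of these lists are not reported here. Fold changes smaller than their own SE are given no direction and mostly not printed.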

Additional observations from a re-analysis of the deposited data

Results flagged for a closer look

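The 112 gene-and-group sets of 5 IP or input libraries were searched with Dixon's test on the log2(CPM + 1) scale. In this search 12 single libraries lay far from the other 4. The test's rate of about 1 in 20 sets by chance holds for normally distributed values. Sets with many counts of 0, as for Gjd2, do not meet this, so the number to be met by chance is not known. Gjc3 was low in white matter zone 1 replicate 1 (39.3 CPM), zone 4 replicate 3 (220.0 CPM) and zone 5 replicate 3 (24.2 CPM), of which the first and last are shallow libraries. Gjb1 was low in white matter zone 2 replicate 1 (8.95 CPM). Panx2 was low in cortex zone 3 replicate 4 (22.8 CPM) and white matter zone 4 replicate 1 (0.416 CPM), and high in uninjured white matter input replicate 2 (12.1 CPM). Panx1 was low in cortex zone 3 replicate 1 (2.43 CPM). Gjb2 was high in uninjured white matter IP replicate 1 (7.68 CPM) and white matter zone 3 replicate 2 (40.9 CPM), and Gjd2 in white matter zone 1 replicate 5 (28.6 CPM, a shallow library) and zone 2 replicate 2 (9.96 CPM).

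The response of Gjc3 to stroke differed between the regions, by 3.50 in zone 1 and 2.44 in zone 2 (log2, cortex minus white matter). Region and stroke model coincide in these contrasts.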

How the results depend on the processing

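Of 125 tested gene-and-comparison values, 14 were called, and none of these 14 changed sign in any alternative run. Of the 63 values larger than their SE, 2 changed sign, each without 1 library: Panx1 in cortex zone 4 (0.062 without uninjured replicate 4, range −0.64 to 0.062) and Gjb6 between white matter zones 1 and 5 (−0.25 without zone 1 replicate 3, range −0.25 to 2.26). The causes of the changes below were not tested. The number of genes of the set called in cortex zone 1 was 1, but 2 with no filter, DESeq2 or all groups in one fit, 0 with limma voom, and 0 to 2 without 1 library. In cortex zone 2 it was 0 with limma voom and 0 to 2 without 1 library; Gjc3 passed there without zone 2 replicate 2 or uninjured replicate 3 (edgeR adjusted p = 0.0378 to 0.0422). In white matter zone 1 it was 1 with no filter, DESeq2, limma voom, the replicate block or without shallow libraries, and 0 to 1 without 1 library. In white matter zone 2 it was 0 with all groups in one fit. For uninjured cortex IP against input it was 1 with no filter and 1 to 2 without 1 library. Between uninjured regions it was 3 to 5 without 1 library, 5 (Gja1 and Panx1 added) without white matter replicate 4. For the zone 2 response it was 2 with DESeq2 and limma voom and 1 to 2 without 1 library. For cortex zone 1 against zone 5 it was 1 with limma voom, the replicate block or without shallow libraries, and 1 to 2 without 1 library.

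Same-numbered libraries deviated together weakly at most (correlations of −0.155 to 0.141 over the comparisons), which cannot exclude a pairing by number. The same-numbered library was the closest match for 0 to 3 libraries per comparison. It was so for 3 of 5 between zones 1 and 5 in each region and between white matter zone 1 and uninjured tissue. The main fits assumed no pairing. With the replicate block Gjc3 in white matter zone 1 passed (−2.45, edgeR adjusted p = 0.00744) and Gjb1 between cortex zones 1 and 5 did not (3.32, 0.0836). No other call of the set changed with it. Counts over all genes moved more: 664 in cortex zone 1 became 231 to 2459 over the alternatives, 47 in white matter zone 1 became 19 to 589 and 99 in zone 2 became 0 to 591. Low counts limit Gjb2, Gjd2 and, in cortex, Gjb1.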
